A study of Mus musculus with 2 samples.

Results

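In pancreatic islets of wild-type (WT) mice, 85 of 4541 cells held messenger RNA of both somatostatin (Sst) and glucagon (Gcg), with little insulin RNA. These Sst+Gcg cells were 1.87% of the cells (exact binomial 95% interval 1.498% to 2.31%). Each was a droplet barcode past a minimum of unique molecular identifiers (UMIs, the counts of captured RNA molecules), with at least 500 genes and at most 15% mitochondrially encoded UMIs. The UMI minimum was 10% of the 99th percentile of the 3000 deepest barcodes, and the shallowest barcode above it had 5641 UMIs. Cells were chosen by their hormone shares: of the barcode's own UMIs, at least 0.5% were Sst, at least 2% were Gcg, and under 10% were Ins1 and Ins2 together. The Sst, Gcg and insulin shares of these cells are therefore a description and not a finding.

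The series profiled islets of mice with a beta-cell-specific miR-203 transgene and of WT mice, with 1 single-cell library per group (10x Genomics 3′ v2 chemistry). The labels give male mice aged 8 weeks, and a fast of 12 hours came before the islets were taken. All values here come from the WT library, since the cells of the transgenic library were not analysed here, and barcodes shared between the libraries were not counted. The labels do not say how many mice gave the islets. Their preparation text describes snap-frozen islets beside a sort of intestinal goblet cells, and the summed goblet marker level was 2.07 CPM (counts per 1000000 UMIs) in the Sst+Gcg cells, with 4 of 7 markers at 0.

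Islets hold separate endocrine cell types. Delta cells release somatostatin, which restrains the secretion of insulin and glucagon by neighbouring cells, and alpha cells release glucagon, which raises blood glucose in the fasted state. The transcription factor Hhex maintains the delta cell state in mice, whereas Irx1 and Irx2 are transcription factors found in alpha cells. A droplet that captures a delta cell and an alpha cell under 1 barcode also holds both hormones. The Sst+Gcg cells were therefore set beside 3 measures: 128 delta cells (Sst at least 3%, Gcg under 2%, insulin under 10%), 424 alpha cells (Gcg at least 8%, Sst under 0.5%, insulin under 8%), and sums of 1 delta and 1 alpha barcode. All 54272 such pair sums were formed. For whole-gene comparisons, the delta-alpha sum adds the mean UMIs of a delta barcode to the mean UMIs of an alpha barcode. With 1 library there is no replicate of any cell group, so no test between them was possible and intervals cover counting error only.

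The hormone shares, which chose the cells, spanned a wide range. Sst took 0.529% of UMIs in the lowest Sst+Gcg cell, 2.17% in the median one and 13.2% in the highest. In delta cells the lowest, median and highest Sst shares were 3.15%, 8.88% and 23.2%, and the highest share in an alpha cell was 0.227%. Gcg took 2.36%, 7.20% and 19.5% of UMIs in the lowest, median and highest Sst+Gcg cell. The highest Gcg share in a delta cell was 0.443%, and alpha cells ranged between 8.01% and 41.8% with a median of 22.0%. Some shares overlapped with those of delta or alpha cells, whose limits of 3% Sst and 8% Gcg are higher than the 0.5% and 2% asked of the Sst+Gcg cells. The Sst gene lies at chr16:23889573-23890958 on the minus strand and the Gcg gene at chr2:62474530-62483650 on the minus strand (mm10, GENCODE vM21 annotation).

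**Figure D1:**
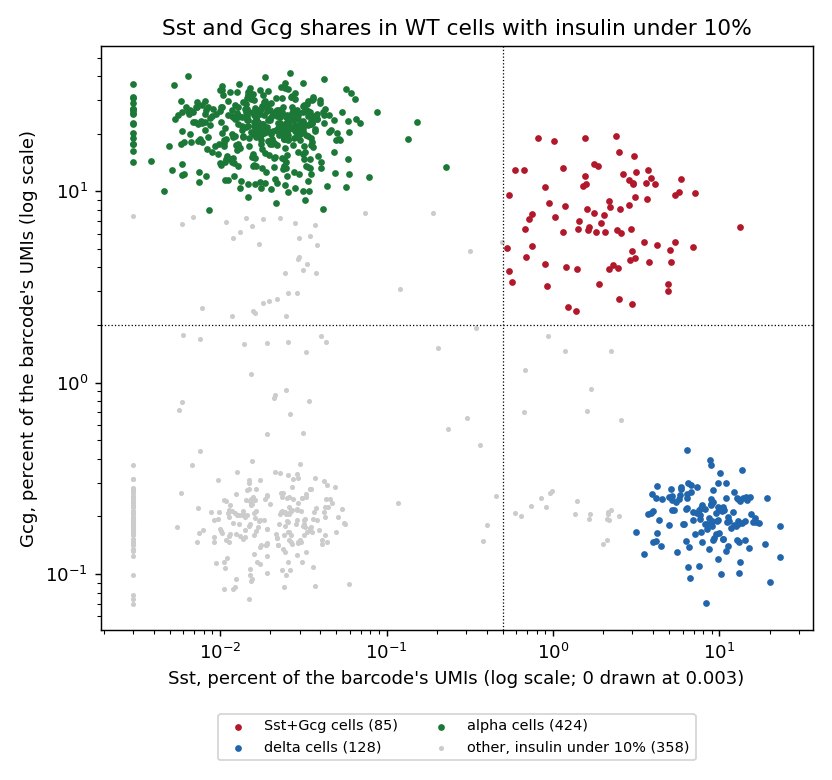
Sst share (x axis, percent of the barcode's UMIs) against Gcg share (y axis, percent), both on log scales, for WT cells with insulin under 10%. Red points are the 85 Sst+Gcg cells, blue points the 128 delta cells and green points the 424 alpha cells. Dotted lines mark the limits of 0.5% Sst and 2% Gcg, and few grey cells lie between the red points and the other groups.

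Few cells lay near the limits. The 3 lowest Sst shares inside were 0.529%, 0.542% and 0.543%, and the 3 highest just outside were 0.493%, 0.316% and 0.227%. The 3 lowest Gcg shares inside were 2.36%, 2.48% and 2.57%, and those just outside were 1.76%, 1.47% and 1.46%. A further 11 cells met both hormone limits but had at least 10% insulin, the lowest of them at 15.9%, against 9.66% in the highest Sst+Gcg cell. Among 510 barcodes between 1000 UMIs and the minimum that passed the other filters, 0 met the rule, while 7 were delta and 4 were alpha by theirs.

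By an estimate from insulin, RNA released into the fluid and shared by all droplets was a small part of both hormones. In droplets of at most 200 UMIs, Sst was 0.258% and Gcg was 2.19% of UMIs. If all insulin UMIs of the Sst+Gcg cells were such free RNA, 0.0239% of their UMIs would be free Sst and 0.203% would be free Gcg. The summed shares measured in them were 2.46% and 8.36%. In delta cells the same estimate gave 0.170% Gcg, against 0.202% measured. In alpha cells it gave 0.0201% Sst, against 0.0220% measured, so the estimate is not an upper limit.

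The Sst+Gcg cells carried more RNA than either cell type. Their median was 21288 UMIs (lowest 8334, highest 53708), against 8743 in delta cells (6130 to 18644) and 14899 in alpha cells (5664 to 39998). The ratio of medians was 2.43 over delta cells and 1.43 over alpha cells, and 61 of the 85 cells exceeded the deepest delta cell. Against the pair sums, whose median was 24504 UMIs, the ratio was 0.869. Of the 85 cells, 51 lay within the 10th to 90th percentile of pair sums (19429 to 33326 UMIs), 29 lay below it and 5 above. Set beside alpha cells, 37 of the 85 cells exceeded the 90th percentile (22237 UMIs). The depth of the Sst+Gcg cells thus overlapped with that of the pair sums and also with that of single alpha cells. At a minimum of 10000 UMIs for every barcode, which kept 84 Sst+Gcg but 38 delta cells, the ratio over delta cells was 1.70.

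Gene number followed a different order once depth was equal. The median Sst+Gcg cell had 4413 genes with a UMI, the median delta cell 2702, the median alpha cell 2932 and the median pair sum 4374. The pair sums for gene numbers were 2857, every 19th of all pairs, with each delta and each alpha cell among them. With each barcode thinned to the UMI minimum, the expected number of genes was 1914 in Sst+Gcg cells, 2012 in delta cells, 1560 in alpha cells and 1759 in pair sums. In 46 of the 85 cells this number was above the 90th percentile of the pair sums (1901), in 38 it lay within their 10th to 90th percentile and in 1 below. The ratio of medians over pair sums was 1.09. The gap narrowed without hormone and mitochondrially encoded UMIs: thinned to 3000 such UMIs, the ratio of Sst+Gcg cells over pair sums was 1.02.

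**Figure D2:**
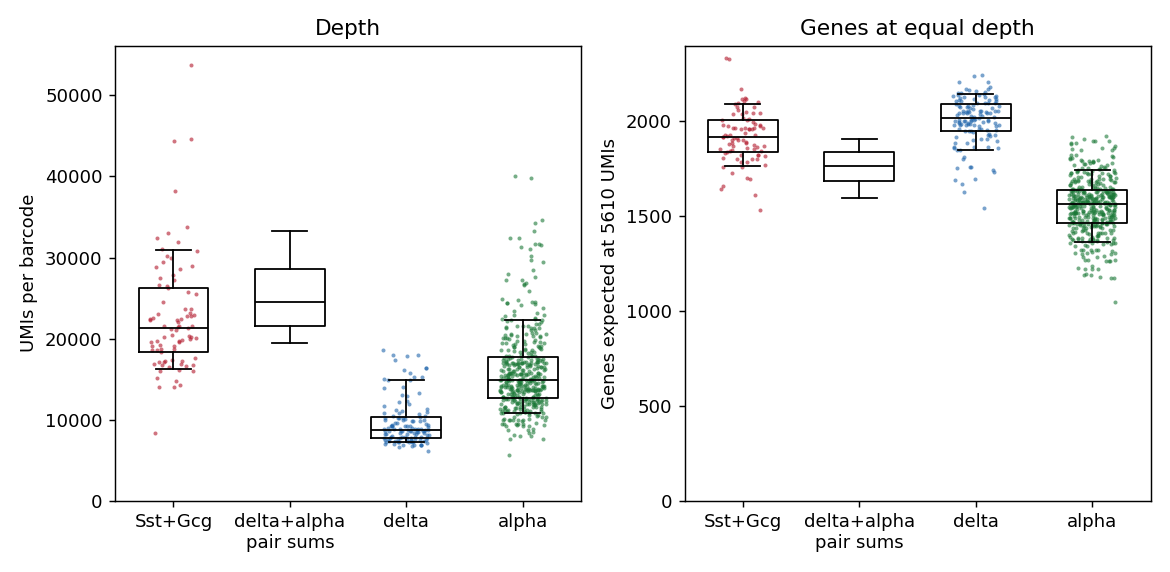
UMIs per barcode (left) and genes expected at the UMI minimum (right) for the Sst+Gcg cells, the delta-alpha pair sums, the delta cells and the alpha cells. Points are cells, boxes show the median and quartiles, and whiskers the 10th and 90th percentiles. The Sst+Gcg median of 21288 UMIs lies nearer to the pair sums (24504) than to delta cells (8743) or alpha cells (14899), and the median of 1914 genes at equal depth lies above that of the pair sums (1759).

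Hormone UMIs per barcode are given as a description, since the Sst and Gcg shares chose the cells. Of the 54272 pair sums, 54270 also met the limits of the Sst+Gcg cells. The cause of levels below the delta-alpha sum was not tested. The Sst+Gcg cells averaged 560 Sst UMIs per barcode, against 931 in delta cells and 3.51 in alpha cells. Gcg averaged 1903 UMIs per barcode in Sst+Gcg cells, against 19.5 in delta cells and 3540 in alpha cells. The median cell held 441 Sst UMIs, against 789 in the median delta cell, and 1575 Gcg UMIs, against 3167 in the median alpha cell. The 14 cells that reached both 3% Sst and 8% Gcg had median shares of 3.69% Sst and 11.0% Gcg, against 3.24% and 13.1% in all pair sums.

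Of the hormones that the rule did not use, Ppy, Pyy and Iapp were below the sum. Pancreatic polypeptide (Ppy) had 597 UMIs per barcode in Sst+Gcg cells and 766 in the delta-alpha sum, a ratio of 0.780. Peptide YY (Pyy) had a ratio of 0.7499 and amylin (Iapp), which beta cells and mouse delta cells release, of 0.843. The insulin genes Ins1 and Ins2, which the rule limits, had ratios of 0.969 and 1.08. As shares of UMIs, median Ppy was 1.75% in Sst+Gcg cells, 2.89% in delta cells, 0.364% in alpha cells and 1.78% in pair sums. In 12 of the 85 cells Ppy was at least 5% of UMIs, so that 3 islet hormones each made up a visible part of their RNA. Such Ppy shares were not particular to these cells. The 90th percentile was 6.13% in Sst+Gcg cells, 7.71% in delta cells, 6.14% in alpha cells and 6.78% in pair sums. Ghrelin (Ghrl) gave 1 UMI in each of 6 Sst+Gcg cells, 0 UMIs in delta cells and 1 UMI in alpha cells.

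The delta markers lay mostly below the sum, and Spp1 was not higher than in alpha cells. Of 7 compared, 0 were at least 1.25-fold higher and 5 at least 1.25-fold lower, with a median of 0.753, against 25.2% and 18% of all 5505 genes compared. Rbp4, the plasma retinol carrier that mouse delta cells express, had 31.9 UMIs per barcode in Sst+Gcg cells, 31.7 in delta cells and 12.2 in alpha cells (ratio over the sum 0.725, interval 0.694 to 0.758). Hhex had 1.19 UMIs in Sst+Gcg cells, 1.36 in delta cells and 0.00472 in alpha cells (ratio 0.871, 0.675 to 1.12). The membrane proteins Cd24a and Ly6h had ratios of 0.915 (0.817 to 1.02) and 0.753 (0.639 to 0.884). Both were close to 0 in alpha cells, at 0.101 and 0.0236 UMIs per barcode. Arg1, which encodes arginase, had a ratio of 0.551, and Nrn1 was at 0 in Sst+Gcg and delta cells alike. Spp1, which encodes osteopontin, had 0.459 UMIs per barcode in Sst+Gcg cells, 0.320 in delta cells and 0.705 in alpha cells, and its ratio over the sum of 0.447 (0.311 to 0.629) was the lowest of the delta markers compared. By CPM, Spp1 was 20.1 in Sst+Gcg cells, 33.0 in delta cells and 44.1 in alpha cells.

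The alpha markers split between an abundant secreted protein and transcription factors. Transthyretin (Ttr), the thyroid hormone carrier made by alpha cells, had 295 UMIs per barcode in Sst+Gcg cells, 6.68 in delta cells and 547 in alpha cells. Its ratio over the sum was 0.533 (0.526 to 0.540). Irx1 and Irx2 were near the level of the sum. Irx1 had 0.894 UMIs per barcode in Sst+Gcg cells, 0.0156 in delta cells and 0.802 in alpha cells (ratio 1.09, interval 0.841 to 1.41). Irx2 had a ratio of 0.953 (0.733 to 1.23). The arginine transporter gene Slc7a2 and the imprinted adaptor gene Grb10 were above the sum, at 1.40 (1.15 to 1.71) and 1.68 (1.39 to 2.03).

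**Figure D3:**
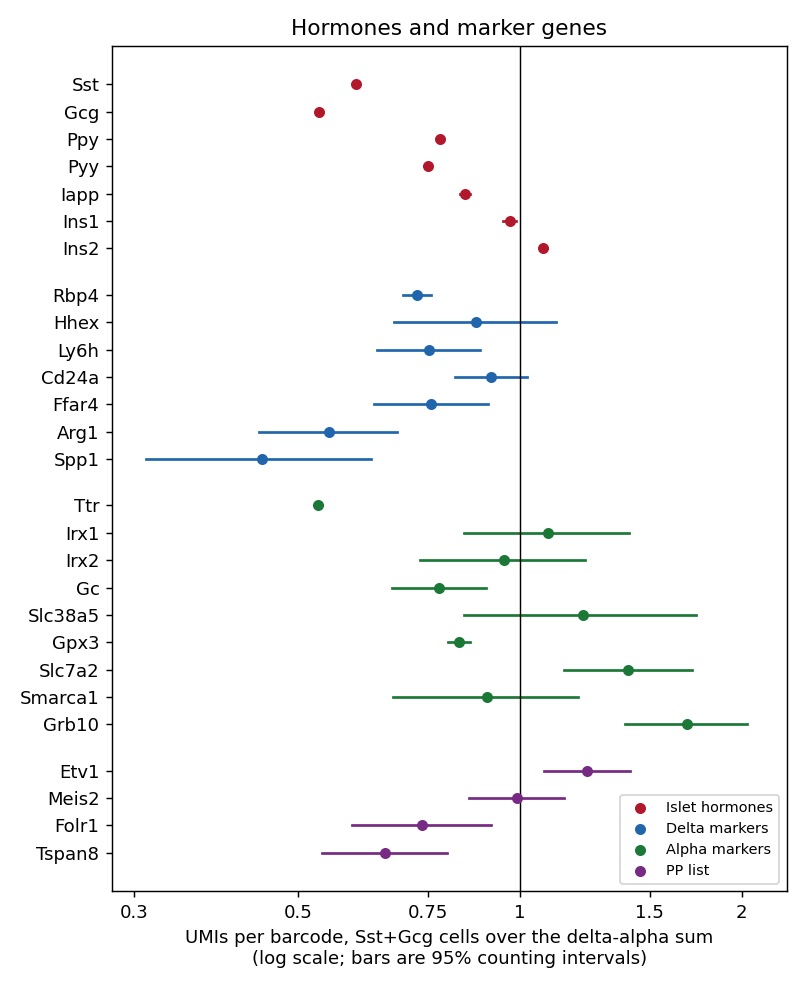
Ratio of mean UMIs per barcode, Sst+Gcg cells over the delta-alpha sum (x axis, log scale), for islet hormones and marker genes, with 95% counting intervals. The line at 1 is equality. Sst (0.600) and Gcg (0.535) were used to choose the cells. Ttr (0.533) lies below the line, while the intervals of Hhex, Irx1 and Irx2 include it.

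Delta and alpha transcription factors were found in the same barcodes. Hhex was detected in 51 of 85 Sst+Gcg cells (60.0%) and at least 1 of Irx1 and Irx2 in 64 (75.3%). Hhex was detected together with Irx1 or Irx2 in 40 cells (47.1%, exact interval 36.1% to 58.2%), and none of them in 10. They were detected together in 3 of 128 delta cells (2.34%), in 1 of 424 alpha cells (0.236%) and in 3 of 3258 cells with at least 30% insulin (0.0921%). These insulin-rich cells had a median of 23423.5 UMIs, a total that includes their insulin RNA. Among pair sums the share was 45.7%. With every barcode thinned to the UMI minimum, the expected share was 8.51% in Sst+Gcg cells, 1.03% in delta cells, 0.0390% in alpha cells, 0.00283% in the insulin-rich cells and 7.25% in pair sums.

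Beyond the known markers, the sets of genes that separate delta from alpha cells were both expressed in the Sst+Gcg cells. The delta set was 89 genes with at least 50 CPM in delta cells and at least 4 times the alpha level, without hormones. The alpha set was 19 genes by the reverse rule. All 89 delta genes had a higher CPM in Sst+Gcg cells than in alpha cells, and all 19 alpha genes a higher CPM than in delta cells. Each set was chosen as low in the other cell type, so comparisons with that type are a description. Among all genes, 11.2% of 5420 were 2-fold higher in CPM than in alpha cells and 0.148% lower. Over delta cells these shares were 3.22% and 5.37% of 6001. The median share of UMIs from the delta set was 0.798% in Sst+Gcg cells, 1.81% in delta cells, 0.277% in alpha cells and 0.881% in pair sums. The alpha set took 1.19% in Sst+Gcg cells, 0.0832% in delta cells, 3.23% in alpha cells and 2.01% in pair sums. In the 14 cells with at least 3% Sst and 8% Gcg, the ratio of the alpha set share was 0.982 over pair sums and 0.612 over alpha cells. In all 85 cells these ratios were 0.591 and 0.368. The 14 cells were picked in part by Gcg share, which went with alpha set share among the 85 (Spearman 0.589). The cause of the lower alpha set share was not tested. Every one of the 85 cells had a higher alpha set share than the highest delta cell, and a higher delta set share than 90% of alpha cells. Within the 10th to 90th percentile of pair sums lay 52 of the 85 cells for the delta set, with 24 below and 9 above, and 56 for the alpha set, with 27 below and 2 above.

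Gene by gene, the medians of both sets were near the sum. The median ratio of UMIs per barcode over the delta-alpha sum was 0.927 for the delta set and 1.01 for the alpha set. By UMIs per barcode, 1388 of 5505 genes compared (25.2%) were at least 1.25-fold higher in Sst+Gcg cells than in the sum and 991 (18%) at least 1.25-fold lower. Of the delta set, 46 of 89 genes lay within 1.25-fold of the sum, 12 above and 31 below, with Ambp lowest at 0.407 and Pvrl3 highest at 1.71. Of the alpha set, 11 of 19 lay within 1.25-fold, 4 above and 4 below, with Ttr lowest and Grb10 highest. Ttr had 12951 CPM in the Sst+Gcg cells and the next alpha gene, Tmsb15b2, had 194 CPM, so the alpha set share follows Ttr while the median ratio does not.

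**Figure D4:**
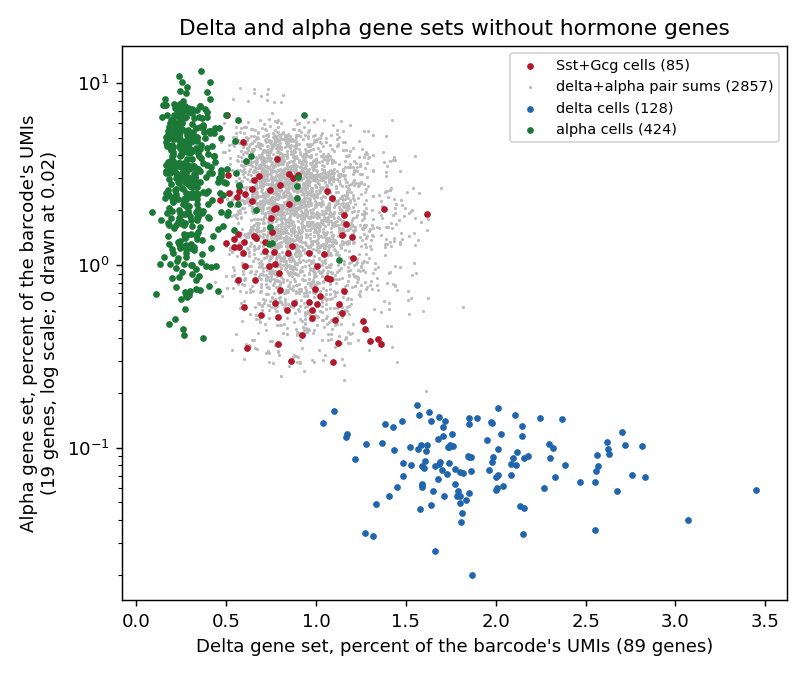
Delta set share (x axis, percent of UMIs) against alpha set share (y axis, percent, log scale), both without hormone genes. Red points are Sst+Gcg cells, grey points 2857 delta-alpha pair sums, blue points delta cells and green points alpha cells. The Sst+Gcg cells lie between the delta and alpha cells, overlapping the pair sums and more often at low alpha set shares, with medians of 0.798% and 1.19%, against 0.881% and 2.01% in pair sums.

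The 85 cells varied widely among themselves. With limits of 3% Sst and 8% Gcg, as in the delta and alpha gates, 14 cells were high in both, 12 in Sst only, 24 in Gcg only and 35 in neither. The 14 cells high in both had a median of 20247 UMIs, a delta set share of 0.873% and an alpha set share of 1.98%. The 35 cells high in neither had 22800 UMIs, 0.789% and 0.730%. Low shares of both hormones thus did not go with low depth. The cell with the highest Sst share had 2839 Sst and 1392 Gcg UMIs among 21466. The deepest cell had 1278 Sst and 10463 Gcg UMIs among 53708, with 6.75% insulin. The shallowest had 102 Sst and 207 Gcg UMIs among 8334. The 9 cells with at least 5% insulin had a median of 27880 UMIs.

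Across the 85 cells, each hormone went with the gene set of its own cell type. Gcg share and alpha set share had a Pearson correlation of 0.505 (Spearman 0.589), and Sst share and delta set share 0.318 (0.466). Sst and Gcg shares were nearly unrelated, at -0.0559 (0.0247), and the delta and alpha set shares were opposed, at -0.355 (-0.403). The cells share 1 library, and shares of 1 total push each other down, so these values are a description. Within delta cells alone, Sst share and delta set share had a correlation of -0.0439 over 128 cells, and within alpha cells Gcg share and alpha set share had 0.241 over 424 cells.

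Across all genes, the Sst+Gcg cells stayed close to the delta-alpha sum. Of 5505 genes with at least 20 CPM on either side, the median ratio of UMIs per barcode was 1.04, and the middle 80% of genes lay between 0.723 and 1.44. By UMIs per barcode, 31 genes (0.563%) were at least 2-fold higher in Sst+Gcg cells and 27 (0.49%) at least 2-fold lower. In CPM the split was 82 genes higher (1.49%) and 6 lower (0.109%), as the median gene moved to a log2 ratio of 0.23, against 0.06 by UMIs per barcode. Relative to the median gene the balance turned, with 19 genes higher and 45 lower, and with no CPM minimum 1855 were higher and 2525 lower. Set against delta cells alone, 193 of 6001 genes (3.22%) were 2-fold higher and 322 (5.37%) 2-fold lower in CPM. Set against alpha cells alone, 607 of 5420 genes (11.2%) were higher and 8 (0.148%) lower. In CPM, the delta-alpha sum left fewer genes past 2-fold than either cell type alone did. The cells were chosen to hold both hormones, so this order is a description.

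Among genes of at least 50 CPM, the 10 highest over the sum lay between 1.74 and 1.88. Spag9, a scaffold of JNK signalling, had 3.24 UMIs per barcode in Sst+Gcg cells and 1.72 in the sum (1.88, interval 1.60 to 2.21). The others were Adgrl1 (a latrophilin adhesion receptor, 1.85), Dnm1l (the dynamin of mitochondrial fission, 1.84), Osbp (an oxysterol-binding lipid transfer protein, 1.84), Bhlhe41 (a circadian repressor, 1.77), Cnot1 (the scaffold of the CCR4-NOT deadenylase, 1.77), Abhd2 (a lipid hydrolase, 1.76), Erdr1 (1.75), Lpin2 (a phosphatidate phosphatase, 1.74) and Zfhx2 (a homeobox factor, 1.74). Erdr1 has near-identical copies, so its count is uncertain. The 10 lowest ratios lay between 0.398 and 0.515. Aga, a lysosomal amidase, had 0.753 UMIs per barcode in Sst+Gcg cells and 1.89 in the sum (0.398, interval 0.301 to 0.519). Of the other low genes, 3 encode proteasome subunits: Psmc1 (0.499), Psmb5 (0.507) and Psmb2 (0.509). The rest were Prdx4 (a peroxiredoxin of the endoplasmic reticulum, 0.473), Eif4a3 (an exon junction helicase, 0.477), Sf3b4 (a splicing factor, 0.482), Tonsl (0.491), Tubb2a (a beta-tubulin, 0.499) and Ranbp1 (a Ran regulator, 0.515).

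Few genes exceeded both cell types. Of 6035 genes, 32 (0.53%) had a CPM in Sst+Gcg cells at least 2-fold above the higher of delta and alpha cells. Of at least 50 CPM, the highest was Osbp, with 54.8 CPM in Sst+Gcg cells, 24.97 in delta cells and 27.3 in alpha cells, 2.00-fold over the higher. Next came Asxl2 (1.89), Erdr1 (1.85), Rimbp2 (1.85), Braf (1.83), Kdm5c (1.82), Abhd2 (1.81), Usp33 (1.80), Setd7 (1.80) and Nt5dc3 (1.79). Asxl2, Kdm5c and Setd7 act on chromatin, Rimbp2 organises calcium channels at release sites and Braf is a kinase of the MAP kinase cascade. No islet hormone was among these 10 genes.

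Gene lists for islet functions lay on both sides of the sum. Their counts at 1.25-fold are to be read against the 25.2% of all genes that were higher and the 18% that were lower. Of 9 ion channel genes compared, 7 were 1.25-fold higher and 0 lower, with a median of 1.41. The calcium channel Cacna1d (1.70, interval 1.19 to 2.40) and the sodium channel Scn3a (1.64) were highest, and the potassium channel Kcnk3 (1.23) and the KATP channel subunit Abcc8 (1.12) lowest. Of 13 exocytosis genes, 3 were higher and 0 lower, with a median of 1.15. Cadps, which primes dense-core granules, had 0.529 UMIs per barcode in Sst+Gcg cells and 0.255 in the sum (2.07, 1.41 to 3.01), and the calcium sensor Syt7 had a ratio of 1.52. Rab3d (0.983) and Syt13 (0.952) were lowest. Of 11 islet transcription factors, 3 were higher and 0 lower, with a median of 1.08, from Etv5 (1.52) and Rfx3 (1.33) to Isl1 (0.902) and Pdx1 (0.813).

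Genes of secretory granule cargo lay mostly below the sum. Of 10 granins and granule proteins, 1 was 1.25-fold higher and 5 lower, with a median of 0.792. Resp18 had 65.4 UMIs per barcode in Sst+Gcg cells and 125 in the sum (0.524, 0.509 to 0.540), and Scg5, the chaperone of the convertase PC2, had a ratio of 0.598. The receptor-like granule proteins Ptprn (1.29) and Ptprn2 (1.24) were highest. Processing enzymes were 2 higher and 2 lower of 7, with Furin (1.38) and Cpd (1.29) high and Pcsk1n (0.792) and Scg5 low. Chaperones and enzymes of the unfolded protein response were 1 higher and 4 lower of 19, with a median of 0.894, from Sel1l (1.37) and Hyou1 (1.17) to the disulfide isomerases Pdia3 (0.732) and Pdia6 (0.623).

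Lysosomal genes and nuclear genes of energy metabolism also lay mostly below the sum. Of 11 lysosomal genes, 0 were 1.25-fold higher and 8 lower, with a median of 0.742. Psap (1.00) and Lamp2 (0.915) were highest, and the hexosaminidase subunit Hexa (0.583) and the protease Ctsl (0.550) lowest. Nuclear genes of oxidative phosphorylation were 0 higher and 10 lower of 19, with a median of 0.798, from Atp5e (1.07) and Cox8a (0.964) to Ndufa4 (0.617) and Uqcrc2 (0.525). The mitochondrially encoded genes were 1 higher and 0 lower of 12, with a median of 1.12. Glucose metabolism genes were 0 higher and 4 lower of 7 (median 0.763), with Txnip at 0.923 and Aldoa lowest at 0.645. Oxidative stress genes were 0 higher and 5 lower of 13 (median 0.861), with Prdx1 lowest at 0.553. Cytosolic ribosomal proteins were level, with 1 higher and 0 lower of 24 and a median of 1.04.

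By list median, genes that respond to handling of the cells did not stand above the sum. Summed over their list, immediate early genes had 105 UMIs per barcode in Sst+Gcg cells and 101 in the sum. For heat shock genes these totals were 296 and 335. Immediate early genes were 1 higher and 4 lower of 15 (median 0.911), with Ier3 (1.32) and Egr1 (1.23) highest and Ier2 (0.704) and Fos (0.592) lowest. Heat shock genes were 1 higher and 3 lower of 11 (median 0.855), with the inducible Hspa1b at 36.9 UMIs per barcode in Sst+Gcg cells and 27.4 in the sum (1.34) and Hspb1 lowest at 0.656. The mitochondrially encoded share of UMIs had a median of 2.84% in Sst+Gcg cells, 2.19% in delta cells, 2.19% in alpha cells and 2.25% in pair sums, and 33 of the 85 cells lay above the pair sums' 90th percentile of 3.04%. The part of this share in the gene ratios was not tested. The nuclear RNAs Malat1, Meg3 and Neat1 had ratios of 0.883, 1.24 and 1.26.

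**Figure D5:**
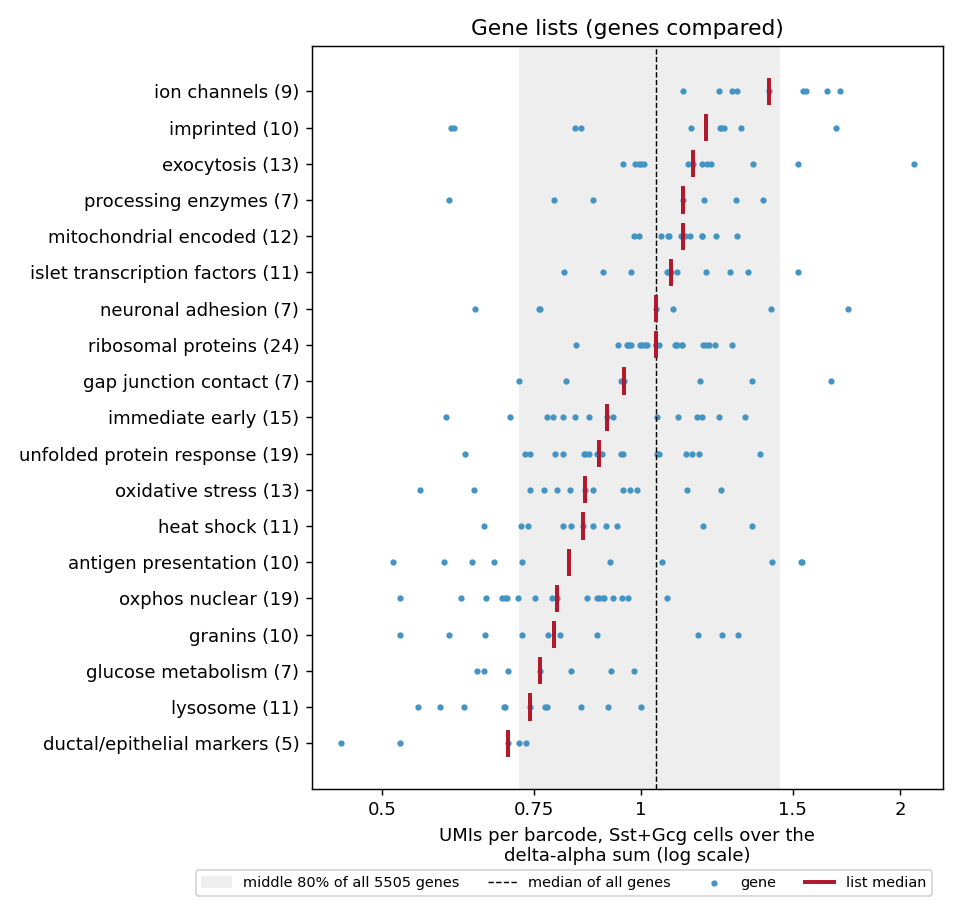
Ratio of mean UMIs per barcode, Sst+Gcg cells over the delta-alpha sum (x axis, log scale), for the genes of each list (blue points) and the list median (red bar). The grey band holds the middle 80% of all 5505 genes and the dashed line is their median of 1.04. Ion channels (median 1.41) lie to the right of that line, and granins (0.792), lysosomal genes (0.742) and ductal or epithelial markers (0.700) to the left.

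Genes of cell contact were mixed. The tight junction scaffold Tjp1 (1.66, interval 1.29 to 2.12) and E-cadherin, Cdh1 (1.35), were highest and Cldn4 (0.818) and Epcam (0.721) lowest, with 2 higher and 1 lower of 7. Neuronal adhesion genes were 2 higher and 3 lower of 7, with Ncam1 (1.42) among the higher genes and Stmn3 (0.760) and Uchl1 (0.640) lowest. The ductal and epithelial list was 5 lower of 5 compared, with Krt8 (0.734) highest, and Krt18 (0.524) and Spp1 lowest. Antigen presentation genes were 3 higher and 5 lower of 10, with Ifit1 (1.53) among the higher genes and B2m (0.590) and H2-Aa (0.514) lowest. Imprinted genes were 2 higher and 2 lower of 10, with Grb10 and Impact (1.31) highest and Nnat (0.606) and Mest (0.601) lowest. Of 3 hormone receptors compared, Adra2a (1.47) and the somatostatin receptor Sstr3 (1.31) were higher and the fatty acid receptor Ffar4 (0.759) was lower. Of 4 cell cycle genes compared, Ccnd1 (1.29) was higher and Pcna (0.623) lower.

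Of 8 beta cell markers compared, Trpm5 (1.43) was 1.25-fold above the sum and Nnat below it, with a median of 0.894, and Mafa and Glp1r were at 0 in Sst+Gcg cells. Pancreatic polypeptide cell markers lay mostly below the sum. Of 5 compared, 0 were higher and 3 lower, with a median of 0.780. Etv1 (1.24) and Meis2 (0.990) were highest and Folr1 (0.738) and Tspan8 (0.657) lowest, with Aqp3 and Vsig1 at 0. The lower genes were Ppy itself and Folr1 and Tspan8, which are also in the delta set. Summed levels of acinar markers were 68.2 CPM in Sst+Gcg cells, 141 in delta cells and 82.4 in alpha cells. Macrophage markers summed to 71.3 CPM in Sst+Gcg cells, 101 in delta cells and 103 in alpha cells. Endothelial markers summed to 38.2 CPM in Sst+Gcg cells, 41.1 in delta cells and 27.3 in alpha cells. Mesenchymal, lymphocyte, Schwann and erythroid markers were each under 23 CPM in Sst+Gcg cells.

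From these counts, 1 cell that makes both hormones and 2 cells under 1 barcode cannot be told apart. The doublet caller Scrublet marked 2 of 4541 cells (0.0440%) and 0 of the 85, too few to be used, and no barcode was removed on its account.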

How the data were processed

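Gene-by-barcode UMI counts of the WT library were analysed as deposited, as whole unnormalised counts per the file headers. FastQC, Trimmomatic and the build mm10 are named in the submitters' processing notes. Which aligner and counter made the matrix is not given in the sources used here. In all, the WT matrix held 118523180 UMIs, and 4550 barcodes passed the UMI minimum. The copy of the transgenic matrix held 782 UMIs, at most 110 in a barcode, and was not analysed here.

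Cells were gated on shares of their own UMIs. CPM were computed from UMIs summed over cells, and genes of at least 20 CPM on either side were compared. The interval of a ratio over the delta-alpha sum is the exact conditional binomial one at the effective count of the weighted sum. Equal depth is the expected value under sampling without replacement, and every 19th pair was taken there, a step chosen after the data were seen. Named genes were the islet hormones and the delta, alpha, beta and polypeptide cell markers, the 10 highest and 10 lowest ratios over the sum and the 10 highest over both cell types among genes of at least 50 CPM whose interval excluded 1, and the 2 highest and 2 lowest genes of each list; genes of the delta and alpha sets and nuclear RNAs were named besides. The cells, lists and rule were chosen with earlier results of these data known. The scale of UMIs per barcode and the 1.25-fold band were chosen after the data were seen. Alternatives changed the gates, depth minimum, scaling, low count filter, weights and set rule. Gene ratios were tested on simulated data. Python 3.11.15, numpy 2.4.6, scipy 1.17.1, pandas 2.3.3, scanpy 1.11.5 and matplotlib 3.10.9 were used. Results of some genes are not reported here.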

Additional observations from a re-analysis of the deposited data

How the results depend on the processing

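Of 77 recomputed values, 48 stayed within the 95% order-statistic interval of the median over cells or, for counts, within 1.5 times the reported count, and 0 ratios changed direction. The balance of higher to lower genes did turn relative to the median gene and with no CPM minimum. The other 29 follow, with the cause not tested unless fewer genes or cells were compared. For gene counts at 2-fold, given as higher than the delta-alpha sum, lower than it and higher than both cell types (82, 6 and 32 as reported), ratios relative to the median gene gave 19, 45 and 66, no CPM minimum gave 1855, 2525 and 1073 and a minimum of 50 CPM gave 4, 1 and 1. UMIs per barcode gave 31 higher and 27 lower. The lower count was 30 without hormone and mitochondrially encoded UMIs in the total (with 19 above both), 11 without the tenth of cells with most UMIs and 21 with equal CPM weights. Limits of 3% Sst and 8% Gcg kept 14 cells and gave 309, 126 and 133 genes, a ratio over pair sums of 1.03 for genes at equal depth and of 0.982 for the alpha set share, and 0.612 for that share over alpha cells. At 10000 UMIs, the UMI ratio was 1.70 over delta cells and 0.742 over pair sums, the delta set share over pair sums 0.827, and 13 genes were lower and 50 above both. Genes at equal depth without hormone and mitochondrially encoded UMIs gave 1.02 over pair sums. A delta set of 8-fold and 100 CPM gave a share of 0.376 over delta cells.

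No paired analysis was possible because each group has 1 library, so there was no replicate to leave out. Most genes gave under 1 or a few UMIs per barcode, so ratios of single genes near 1 were not resolved at this depth. The thinned co-detection shares are expected values and carry no interval.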
